A study of Mus musculus with 6 samples.

Results

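The genes described here encode the machinery that carries proteins into mitochondria and folds them there, measured in cultured brown adipocytes with and without functional Ucp1. Members were chosen by name: every RefSeq transcript whose symbol begins with Timm or Tomm followed by a number, and Samm50, Mtx1, Mtx2, Pam16, Dnajc19, Grpel1, Grpel2, Hspa9, Hspd1, Hspe1, Chchd4, Gfer, Pmpca and Pmpcb. This gave 38 of the 22466 RefSeq gene symbols listed. Where a gene had several RefSeq transcripts, that with the highest mean stood for it. Of the 38 members, 36 reached an average of 0.5 RPKM across all cultures and were tested. Pam16 and Timm8a2 lay below this minimum.

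Cells of the stromal-vascular fraction were taken from the interscapular brown fat of male mice of strain 129SvEvS1, aged 5 to 6 weeks, and were differentiated in the dish. The 3 WT cultures (replicates 10, 11 and 12) came from wildtype mice and the 3 Ucp1-KO cultures (replicates 13, 14 and 15) from mice of the same strain that lack functional Ucp1. All cultures received isobutylmethylxanthine, indomethacin, dexamethasone, insulin, T3 and rosiglitazone for 2 days and then insulin, T3 and rosiglitazone for 7 days. The study counts 3 cultures per genotype, and how many mice went into each is not given in the sources used here.

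Nearly all mitochondrial proteins are made in the cytosol and cross the mitochondrial membranes unfolded. The TOM complex of the outer membrane receives them, the SAM complex inserts barrel proteins into that membrane, and the TIM23 and TIM22 complexes of the inner membrane pass on matrix proteins and metabolite carriers. Small Tim chaperones escort membrane proteins through the intermembrane space, a disulfide relay folds the small Tims themselves, and the chaperone mtHsp70 pulls matrix proteins inwards before a peptidase removes their targeting signal and Hsp60 with Hsp10 folds them. UCP1 is a member of the carrier family, which in general uses the TOM complex, the small Tims and TIM22. Brown adipocytes are packed with mitochondria and depend on this import.

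Ucp1, the gene targeted in the knockout, had 1775, 981 and 1157 RPKM in WT replicates 10, 11 and 12 and 307, 409 and 398 RPKM in Ucp1-KO replicates 13, 14 and 15. The genotypes did not overlap, and the remaining reads come from an allele that lacks internal exons only. The log2 fold change was -1.78 (SE 0.24, limma adjusted p = 0.868). RPKM scales read numbers to transcript length and library size, so that levels can be compared between genes. The 6 libraries held 14989603 to 17727654 reads, recovered from the deposited values. Replicates were different libraries, since the chi-square of their reads per degree of freedom was at least 10.9 in any pair of the same genotype. All 8 brown adipocyte markers examined reached an average of 0.5 RPKM and summed to 30983 to 33022 RPKM in WT and 30419 to 34082 RPKM in Ucp1-KO cultures. Of other cells, 7 of 8 stromal markers, 5 of 5 macrophage markers, 3 of 4 endothelial markers and 1 of 4 muscle markers reached this minimum, and each marker had reads in at least some culture. Stromal markers summed to 687, 1606 and 957 RPKM in WT and 967, 875 and 594 RPKM in Ucp1-KO cultures. Macrophage markers summed to 55.4, 169 and 105 RPKM in WT and 160, 803 and 41.4 RPKM in Ucp1-KO cultures.

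Import transcripts differed widely in abundance. Of the 38 members, 6 had a mean above 100 RPKM, 24 lay between 10 and 100 RPKM and 8 below 10 RPKM. Hspa9, the mtHsp70 motor chaperone, was by far the most abundant, with 498, 516 and 540 RPKM in WT and 419.6, 486 and 527 RPKM in Ucp1-KO cultures. It was number 93 of all RefSeq transcripts. Timm8b, a small Tim, followed with 191, 194 and 184 RPKM in WT and 214, 216 and 233 RPKM in Ucp1-KO cultures. Next among the RefSeq transcripts came Grpel1, the nucleotide exchange factor of the motor, with 119, 99.6 and 101 RPKM in WT and 125, 112 and 112 RPKM in Ucp1-KO cultures. Tomm6, Samm50 and Hspd1 followed with genotype means between 101 and 110.3 RPKM, and their order was within the spread of the cultures. The plot of abundance by gene shows this order and how little single cultures differed from each other, with a median coefficient of variation over all 6 cultures of 9.1% and 21 members under 10%.

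**Figure D1:**
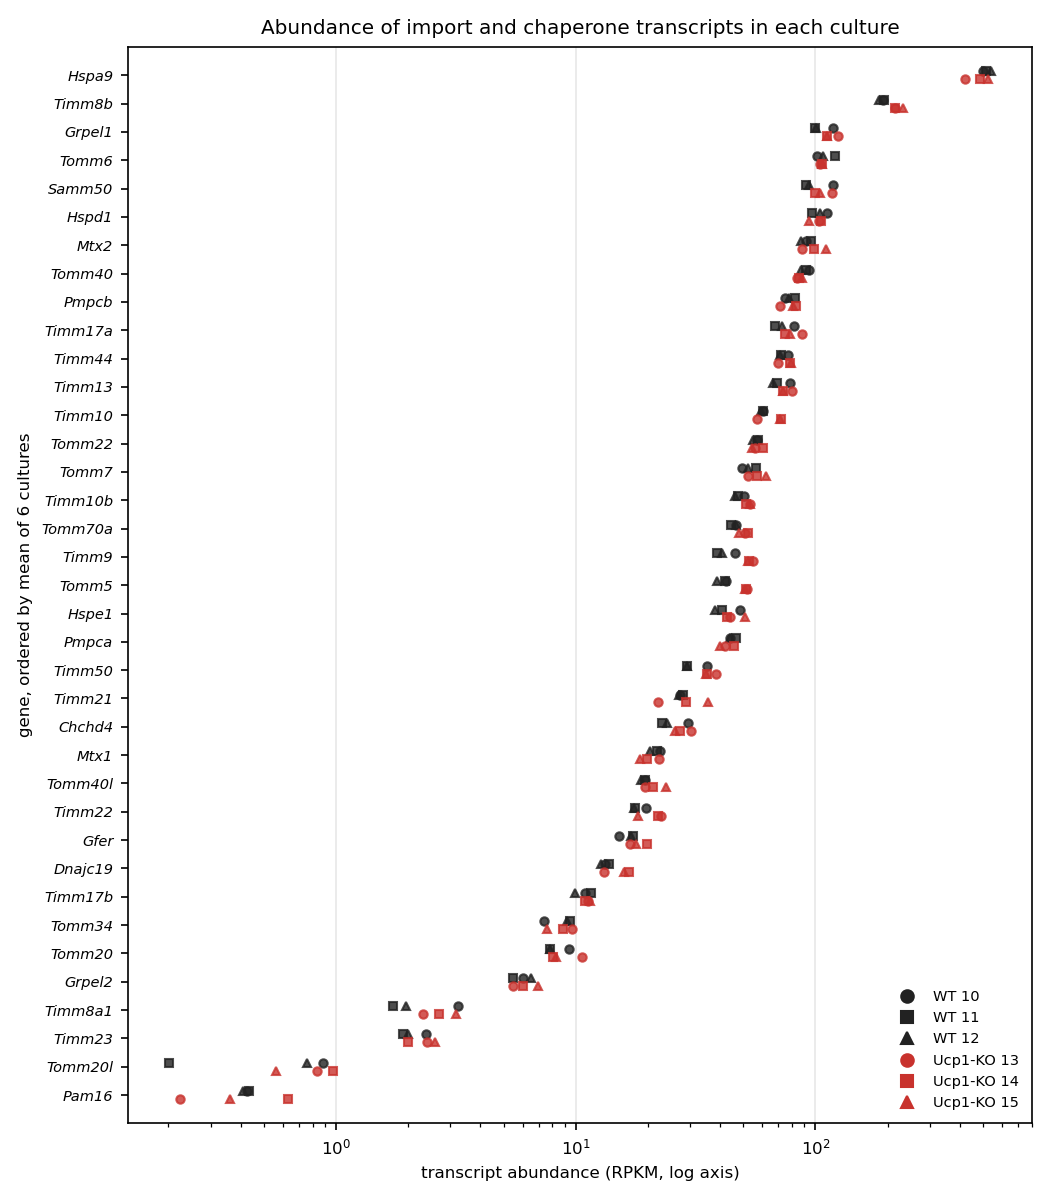
Transcript abundance in RPKM on a log axis of 37 members, ordered by their mean over the 6 cultures, with WT cultures in black and Ucp1-KO cultures in red and a symbol for each replicate. Hspa9 lay highest at 419.6 to 540 RPKM. Timm8a2 is left out because it was listed at 0 in 5 cultures.

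At the low end stood relatives of other members and Pam16. Tomm20l, a relative of the receptor Tomm20, had 0.885, 0.201 and 0.757 RPKM in WT and 0.831, 0.973 and 0.560 RPKM in Ucp1-KO cultures. Pam16, a partner of the motor, had 0.424, 0.434 and 0.409 RPKM in WT and 0.224, 0.631 and 0.363 RPKM in Ucp1-KO cultures. Timm8a2, a relative of Timm8a1, was seen with 0.0640 RPKM in WT replicate 10, which was 1 read, and with no read in the other cultures. On its transcript of 914 bases 3 reads correspond to 0.185 to 0.219 RPKM in these libraries, a floor below which Timm8a2 cannot be measured reliably at this depth. Another deposited transcript of Pam16 is described with the shared sequences.

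No import member passed the adjusted threshold between the genotypes. By limma, 0 of 36 members had an adjusted p under 0.05, as did 0.0% of all 16865 RefSeq rows tested. The smallest adjusted p was 0.868. Ucp1 itself, with the smallest unadjusted limma p of all rows (0.000157), did not pass either. The count of 0 therefore does not show that members were unchanged. The study, which used DESeq2, listed Ucp1 among its differential genes. Without adjustment 3 of 36 members (8.33%) had a p under 0.05, against 5.54% of all rows. These were Timm9, Tomm5 and Timm8b, all higher in Ucp1-KO, where the share over all rows in that direction was 2.3%, and 0 members were lower, against 3.24%. Limma-voom on the recovered reads gave 0 members with an adjusted p under 0.05. It gave the same 3 members without adjustment, against 5.3% of all rows. P-values measure the spread between these cultures. Bulk RNA cannot tell apart fewer cells of a type and less RNA per cell.

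Most members had slightly higher values in Ucp1-KO cells. Of the 36 members, 30 (83.3%) had a log2 fold change above 0 and 6 below, against 49.6% of all rows above 0. Their median was 0.11, on the scale of log2(RPKM + 1), beside -0.0016 for all rows. The range ran from -0.12 for Hspa9 to 0.35 for Timm9. The genotypes did not overlap for 5 members (13.9%), against 11.2% of all rows, and all of them lay higher in Ucp1-KO, where the share of all rows was 6.04%, against 5.15% for the other direction. The 95% intervals reached at most 0.48 to either side of the estimate, with a median of 0.24. Members share the cultures and are not independent of each other, and the count has no test. With WT replicate 11 left out, which had the highest stromal sum, the median was 0.06 and 29 members were above 0. Without Ucp1-KO replicate 14, which had the highest macrophage sum, the median was 0.11 and 27 were above 0. The part of other cells in these values was not tested further.

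**Figure D2:**
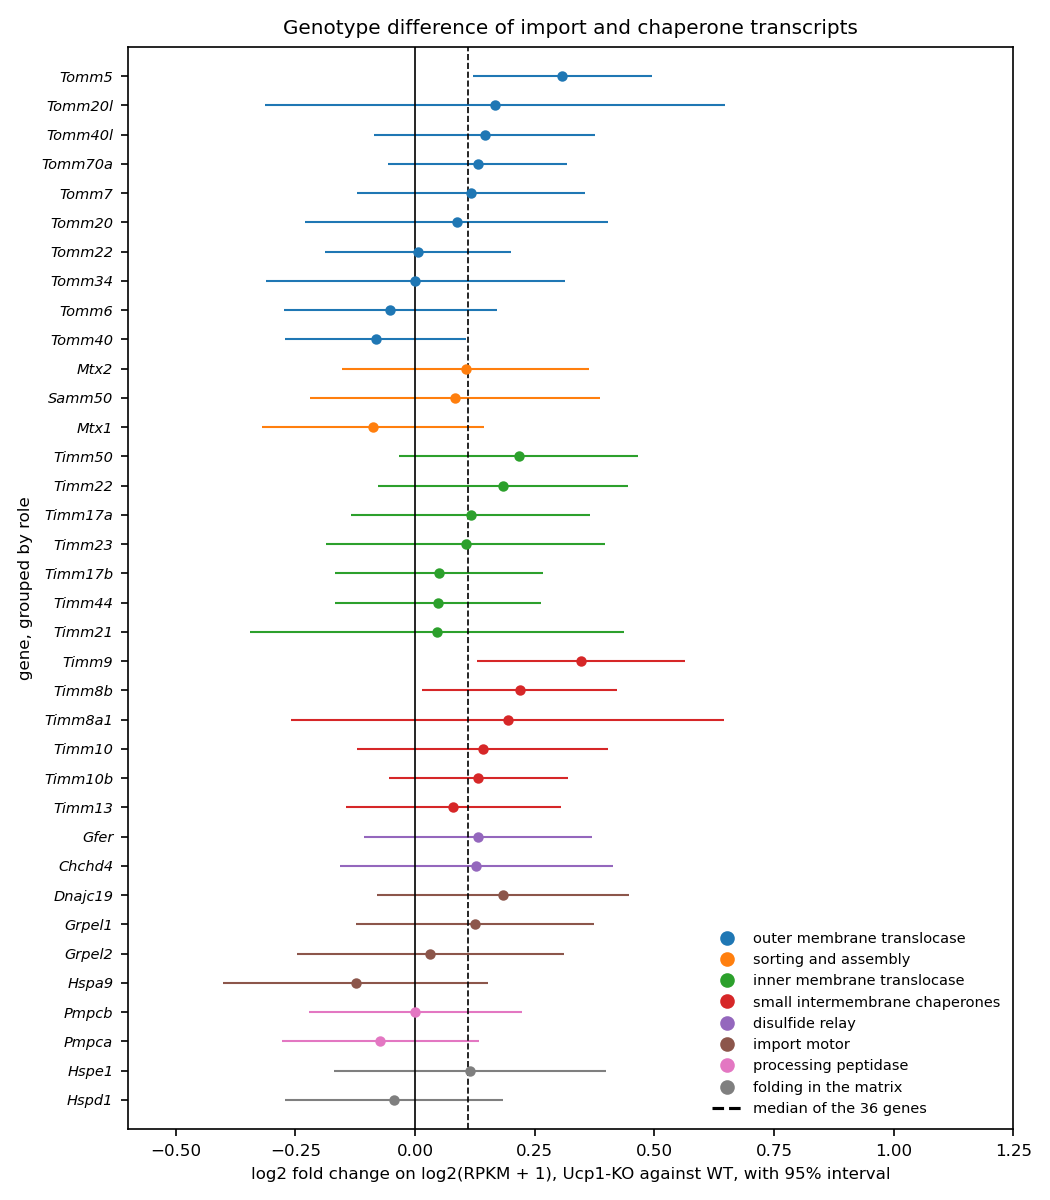
Log2 fold change of the 36 tested members on log2(RPKM + 1), Ucp1-KO against WT, with 95% intervals from limma, coloured by role. The dashed line is the median of 0.11, and the intervals of Tomm5, Timm9 and Timm8b are the only ones that do not cross 0.

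In the outer membrane, 8 of 10 members had a log2 fold change above 0, with a median of 0.10. Tomm5, a small subunit of the TOM complex (NM_001099675, reverse strand of chromosome 4, 45105209 to 45108113), had 42.5, 42.1 and 39.0 RPKM in WT and 51.6, 51.3 and 50.7 RPKM in Ucp1-KO cultures. Every Ucp1-KO culture lay above every WT culture, and the Ucp1-KO values were close together. The Ucp1-KO mean of 51.2 ± 0.469 RPKM (SD, n = 3) was 124% of the WT mean of 41.2 ± 1.94 RPKM (SD, n = 3). The log2 fold change was 0.31 (SE 0.08, 95% interval 0.12 to 0.49, limma adjusted p = 0.868, unadjusted 0.00607). The other RefSeq transcript of Tomm5 gave the same log2 fold change of 0.31.

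Tomm70a, the receptor for carrier proteins, was the other member of this group whose genotypes did not overlap, with 46.7, 44.5 and 46.5 RPKM in WT and 50.7, 52.2 and 48.2 RPKM in Ucp1-KO cultures. Its log2 fold change of 0.13 had an interval that included 0 (-0.06 to 0.32, limma adjusted p = 0.876). Tomm40, the channel itself, had 94.3, 91.1 and 86.8 RPKM in WT and 83.8, 85.4 and 87.6 RPKM in Ucp1-KO cultures. The channel thus had a log2 fold change of -0.08, while its rarer relative Tomm40l, at 19.5, 19.4 and 18.7 RPKM in WT and 19.5, 20.9 and 23.8 RPKM in Ucp1-KO cultures, had one of 0.15. For both genes the cultures overlapped. The receptors Tomm20 and Tomm22 had log2 fold changes of 0.09 and 0.01, the small subunits Tomm7 and Tomm6 of 0.12 and -0.05, the cytosolic cochaperone Tomm34 of 0.00 and Tomm20l of 0.17. The value of Tomm20l, on 2 to 10 reads per culture, turned to -0.03 without WT replicate 11. It was 0.29 without WT replicate 10, 0.46 with a constant of 0.1 RPKM and 0.52 by limma-voom on recovered reads.

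For the sorting and assembly machinery of the outer membrane, 2 of 3 members had a log2 fold change above 0, with a median of 0.08. Samm50, its barrel core, had genotype means of 101 ± 14.9 and 107 ± 9.07 RPKM in WT and Ucp1-KO (SD, n = 3 each), and the partners Mtx2 and Mtx1 had log2 fold changes of 0.11 and -0.09. Samm50 was high in WT replicate 10 and Ucp1-KO replicate 13 alike, at 118 and 117 RPKM, and below 105 in the other cultures.

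The inner membrane translocases all had log2 fold changes above 0, 7 of 7 members with a median of 0.11, against 49.6% of all rows above 0. An unadjusted limma p under 0.05 was seen for 0 of 7, against 5.54% of all rows, and genotypes apart for 0 of 7, against 11.2%. Timm50, the receptor of the TIM23 complex, had the largest value with 0.22 (95% interval -0.03 to 0.47, limma adjusted p = 0.871), from 35.3, 29.2 and 29.0 RPKM in WT to 38.6, 35.2 and 35.0 RPKM in Ucp1-KO cultures. Timm22, the channel for carriers, had 0.18 and Timm17a of the TIM23 channel 0.12. Timm21, Timm17b and Timm44, which ties the motor to the channel, each had 0.05. Timm23, the channel that names the complex, was listed at 2.37, 1.91 and 1.99 RPKM in WT and 2.40, 1.997 and 2.58 RPKM in Ucp1-KO cultures, far below its partners Timm17a and Timm50.

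The small intermembrane chaperones held 3 of the 5 members whose genotypes did not overlap, which is 3 of the 6 tested, against 6.04% of all rows that lay apart and higher. All 6 had a log2 fold change above 0, against 49.6% of all rows, with a median of 0.17. Timm9, a subunit of the hexamer that carries metabolite carriers (NM_001024854, reverse strand of chromosome 12, 71123172 to 71136708), had 46.0, 38.9 and 40.6 RPKM in WT and 54.7, 52.9 and 52.6 RPKM in Ucp1-KO cultures. All Ucp1-KO cultures lay above the highest WT culture. Its Ucp1-KO mean of 53.4 ± 1.14 RPKM (SD, n = 3) was 128% of the WT mean of 41.9 ± 3.69 RPKM (SD, n = 3), with a log2 fold change of 0.35 (SE 0.09, 95% interval 0.13 to 0.56, limma adjusted p = 0.868, unadjusted 0.00704). The other RefSeq transcripts of Timm9 gave 0.33 and 0.34.

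Timm10, the partner of Timm9 in that hexamer, did not separate the genotypes. It had 60.6, 60.3 and 59.4 RPKM in WT and 57.0, 72.1 and 71.1 RPKM in Ucp1-KO cultures, so that replicates 14 and 15 lay above all WT cultures and replicate 13 below. Timm10b, which ties the hexamer to TIM22, had 50.5, 47.5 and 46.3 RPKM in WT and 53.5, 51.6 and 53.3 RPKM in Ucp1-KO cultures. Its groups did not overlap, with a log2 fold change of 0.13 (95% interval -0.05 to 0.32).

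Timm8b (NM_013897, forward strand of chromosome 9, 50603901 to 50605320) had the values given with the most abundant members, and all its Ucp1-KO cultures lay above all WT cultures. Its Ucp1-KO mean of 221 ± 10.5 RPKM (SD, n = 3) was 116% of the WT mean of 189.6 ± 4.95 RPKM (SD, n = 3). The log2 fold change was 0.22 (SE 0.09, 95% interval 0.02 to 0.42, limma adjusted p = 0.868, unadjusted 0.0385). The unadjusted p was no longer under 0.05 with any single culture other than Ucp1-KO replicate 13 left out, at log2 fold changes of 0.18 to 0.23. Its partner Timm13 had 0.08 and Timm8a1, the relative whose human counterpart is linked to a deafness and dystonia syndrome, 0.19. For each of the 5 members with genotypes apart the exact two-sided permutation test gave p = 0.1, the smallest that 3 cultures against 3 allow.

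In the disulfide relay, Chchd4, which oxidizes incoming proteins, and Gfer, the oxidase that recharges it, both had a log2 fold change of 0.13, with overlapping cultures. In the import motor, Hspa9 had the lowest value of all members with -0.12 (95% interval -0.40 to 0.15, limma adjusted p = 0.894). Ucp1-KO replicates 13 and 14 lay below all WT cultures and replicate 15 among them, and the log2 fold change was -0.03 without replicate 13 and -0.20 without replicate 15. The cochaperones Grpel1, Grpel2 and Dnajc19 had log2 fold changes of 0.13, 0.03 and 0.18. That of Grpel1 was 0.07 without Ucp1-KO replicate 13, 0.08 without WT replicate 11 and 0.21 without WT replicate 10.

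The processing peptidase subunits Pmpca and Pmpcb had log2 fold changes of -0.07 and 0.00. Hspd1, the Hsp60 of the matrix, had 112, 96.9 and 104 RPKM in WT and 104, 105 and 93.7 RPKM in Ucp1-KO cultures, a log2 fold change of -0.04. Its sign turned without WT replicate 10 (0.00596) or Ucp1-KO replicate 15 (0.00896), and it was -0.09 without WT replicate 11. Hspe1, its lid Hsp10, had 48.4, 40.6 and 38.2 RPKM in WT and 44.0, 42.9 and 50.7 RPKM in Ucp1-KO cultures, a log2 fold change of 0.11. That of Hspe1 was 0.04 without Ucp1-KO replicate 15 or WT replicate 12 and 0.21 without WT replicate 10. Both genes overlapped between the genotypes.

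**Figure D3:**
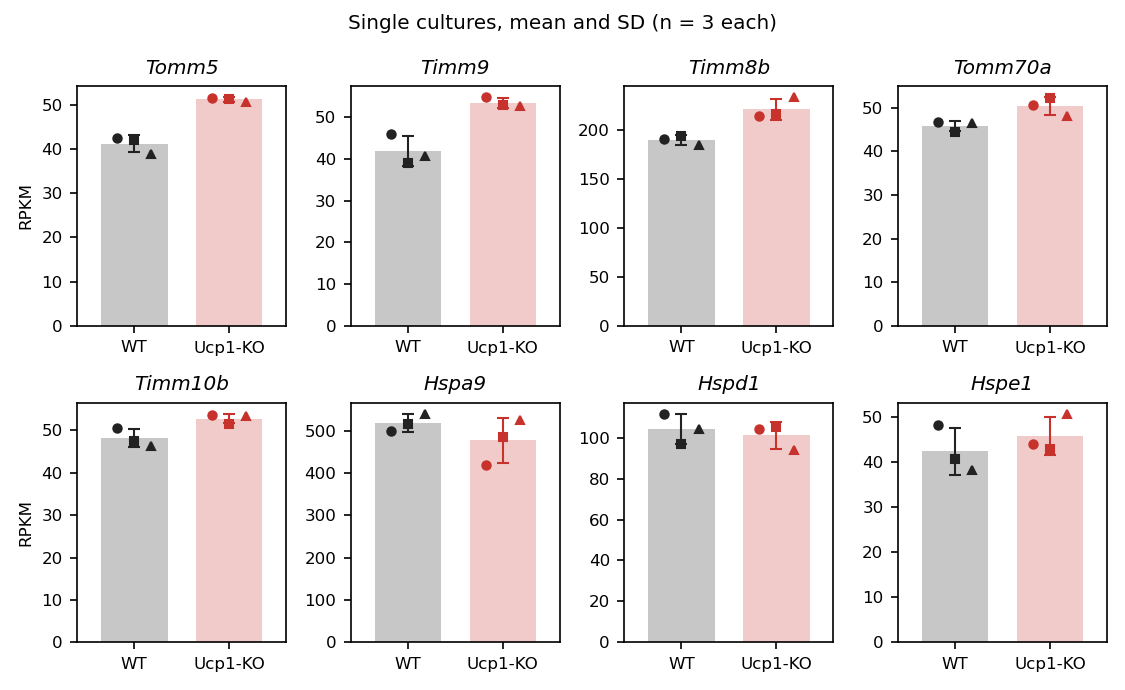
RPKM of the 5 members whose genotypes did not overlap (Tomm5, Timm9, Timm8b, Tomm70a and Timm10b) and of the matrix chaperones Hspa9, Hspd1 and Hspe1, with axes from 0. Bars are means with SD (n = 3 each) and points are single cultures, and Tomm5 lies at 39.0 to 42.5 RPKM in WT and 50.7 to 51.6 RPKM in Ucp1-KO cultures.

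The upstream sequences of the members whose genotypes did not overlap are shown so that they can be compared, on the strand of the gene. The sequences are given only where no annotated gene covers them (RefSeq and GENCODE M21, GRCm38.p6). They are chr4:45108115-45108363 (reverse strand) for Tomm5, chr12:71136709-71136847 (reverse) for Timm9, chr9:50603850-50603900 (forward) for Timm8b and chr16:57121464-57121702 (forward) for Tomm70a. Timm10b has no such stretch, because its own GENCODE span starts before its RefSeq start and covers the upstream side, where a neighbouring gene also overlaps. Capitals mark CCGGAAG, a core bound by ETS factors such as those of nuclear respiratory factor 2.
Tomm5: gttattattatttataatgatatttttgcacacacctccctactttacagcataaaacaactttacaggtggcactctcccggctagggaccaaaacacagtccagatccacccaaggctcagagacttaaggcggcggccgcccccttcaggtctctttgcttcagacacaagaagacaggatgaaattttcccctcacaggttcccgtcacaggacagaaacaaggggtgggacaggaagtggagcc
Timm9: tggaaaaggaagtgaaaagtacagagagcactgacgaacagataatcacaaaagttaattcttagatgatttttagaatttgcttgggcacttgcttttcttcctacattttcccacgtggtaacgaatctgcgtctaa
Timm8b: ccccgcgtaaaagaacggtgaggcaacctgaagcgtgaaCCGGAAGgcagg
Tomm70a: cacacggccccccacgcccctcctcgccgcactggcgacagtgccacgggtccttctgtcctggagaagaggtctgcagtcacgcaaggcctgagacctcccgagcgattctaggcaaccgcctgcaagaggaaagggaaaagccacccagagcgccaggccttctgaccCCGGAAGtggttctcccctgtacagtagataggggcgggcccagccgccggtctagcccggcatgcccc
Timm8b and Tomm70a hold the core, whereas Tomm5 and Timm9 have it nowhere in these stretches.

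Promoter windows of 300 bases, from 250 before to 50 after the start, were held by RefSeq for 33 of 38 members (36 windows). CCGGAAG, searched on both strands, lay in 16 of 36 windows (44.4%), against 8.86% of all 32851 windows and 17.3% of the 11678 windows of genes tested here. Its carriers include Hspd1, Hspe1, Timm10, Timm10b, Timm23, Tomm22 and Pmpca. The CCAAT box lay in 30.6% of the member windows and 37.4% of all windows (37.7% of those of tested genes). The heat shock element GAANNTTC lay in 3 windows (8.33%), those of Hspd1, Hspe1 and Timm9, against 7.86% of all windows and 5.85% of those of tested genes. AAGATGGC, the core of YY1, lay in 2 of 36 windows (5.56%), against 2.75% of all windows and 4.32% of those of tested genes. The palindromic NRF1 motif lay in 0 of 36 windows, against 0.971% and 2.1%. Matches are descriptions of the letters and not evidence of binding. Windows of neighbours that share a start are counted once for each gene.

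Hspd1 and Hspe1 share a bidirectional start region, and the starts of their GENCODE M21 genes overlap by 112 bases on opposite strands of chromosome 1. The heat shock element that both windows share is printed in capitals with 10 bases on either side, from chr1:55088054-55088081 (forward), 76 bases before the RefSeq start of Hspe1, which differs from the GENCODE start.
Hspe1: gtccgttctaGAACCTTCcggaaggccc

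Head-to-head neighbours were frequent. Of 38 members, 12 (31.6%) had a protein-coding neighbour on the opposite strand whose start lay within 1000 bases, against 10.8% of 21951 coding genes and 16.6% of the 11252 tested here. Timm8b lies 97 bases from Sdhd, a subunit of succinate dehydrogenase, which had 676, 480 and 491 RPKM in WT and 636, 554 and 609 RPKM in Ucp1-KO cultures. Sdhd, unlike Timm8b, overlapped between the genotypes, with a log2 fold change of 0.14 (limma adjusted p = 0.906). Timm9 starts 163 bases from 2700049A03Rik, which had genotype means of 1.08 ± 0.238 and 1.38 ± 0.156 RPKM in WT and Ucp1-KO (SD, n = 3 each). Its other end meets the end of Tomm20l on the opposite strand, and without a stated use of strand reads in such overlaps cannot be told apart.

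Ratios within a culture, in which its scaling cancels, were compared for paralogues and partners. Of 13 ratios, Tomm40 to Tomm40l was in RefSeq transcripts the only ratio whose genotypes did not overlap, with 4.83, 4.70 and 4.64 in WT and 4.29, 4.08 and 3.68 in Ucp1-KO cultures. The log2 difference was -0.24 (p = 0.1 by exact permutation, two-sided and the smallest possible, Benjamini-Hochberg adjusted over the ratios 0.929). With the most abundant deposited transcript of Tomm40l outside RefSeq, a choice made after the data were seen, the ratio was 2.76, 2.496 and 2.498 in WT and 2.595, 2.19 and 1.997 in Ucp1-KO cultures, and the genotypes overlapped. Hspd1 to Hspe1 was 2.31, 2.38 and 2.73 in WT and 2.36, 2.46 and 1.85 in Ucp1-KO cultures. Timm9 to Timm10 was 0.759, 0.646 and 0.684 in WT and 0.960, 0.734 and 0.739 in Ucp1-KO cultures, and overlapped through WT replicate 10. Timm17a exceeded its paralogue Timm17b by 6.86 ± 0.847 times in WT and 7.14 ± 0.544 times in Ucp1-KO (SD, n = 3 each). With the most abundant transcripts outside RefSeq it did so by 4.07, 3.09 and 3.97 times in WT and 4.18, 3.64 and 3.73 times in Ucp1-KO cultures. The number of ratios apart was 3 without WT replicate 10 and 5 without Ucp1-KO replicate 13. Leaving out a culture can add to this number but not lower it.

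**Figure D4:**
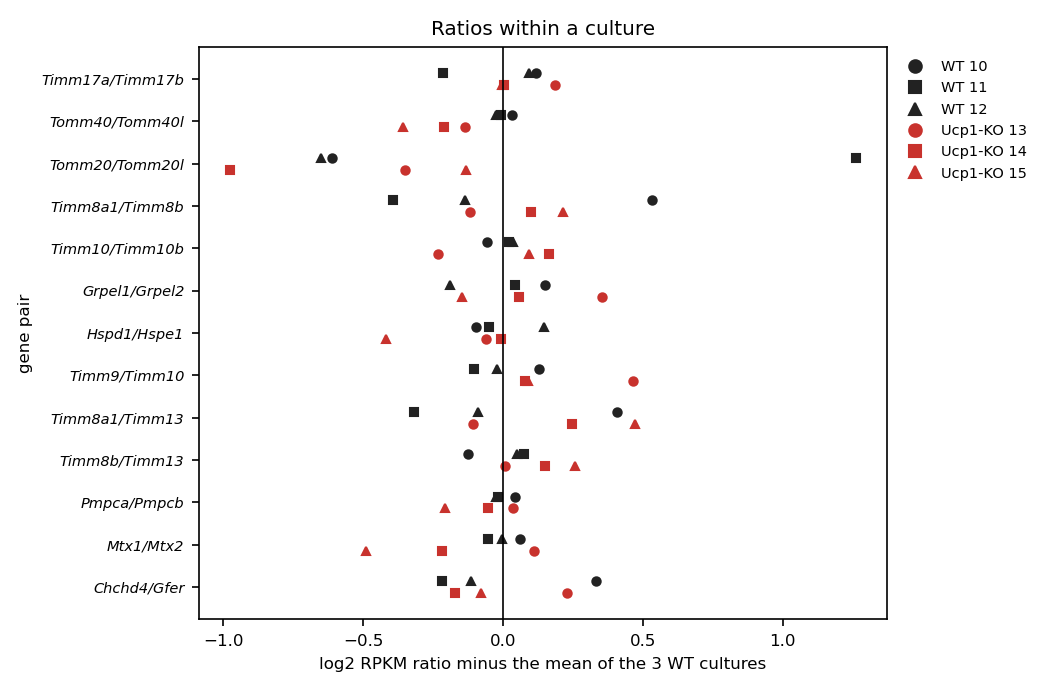
Log2 ratio of the RPKM of gene pairs in each culture, minus the mean of the WT cultures, with WT in black and Ucp1-KO in red. Tomm40 to Tomm40l is the only pair in which all red symbols lie on the same side of all black ones.

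The cultures of a genotype also differed among themselves. Relative to the WT mean of each gene, the median over the 36 members was 0.05, -0.01 and -0.04 (log2) in WT cultures. It was 0.05, 0.09 and 0.08 in Ucp1-KO cultures, so that WT replicate 10 and Ucp1-KO replicate 13 were alike. The median over all rows tested was -0.07, 0.05 and 0.02 in WT and -0.04, 0.03 and -0.01 in Ucp1-KO cultures. WT replicate 10 thus had the lowest median over all rows, though the highest of the WT cultures for the members. WT replicate 10 was the highest WT culture for 22 of 36 members and WT replicate 12 the lowest for 18. Summed over all 38 members, import transcripts made up 2304, 2241 and 2219 RPKM in WT and 2254, 2334 and 2401 RPKM in Ucp1-KO cultures. Of the genes used here for mitochondrial mass (Cs, Vdac1, Vdac2, Vdac3, Sdha, Uqcrc1 and Cox4i1), 7 of 7 were detected, and their median in Ucp1-KO cultures was -0.14, 0.04 and -0.01 relative to the WT mean. Replicate 13, lowest for them, had the highest value of 11 members.

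A second list of 25 genes of insertion, processing, protease and scaffold functions was all detected. Of these, 15 had a log2 fold change above 0 and 10 below, against 49.6% of all rows above 0, with a median of 0.05. By limma 0 of 25 had an adjusted p under 0.05, and 2 of 25 (8%) had an unadjusted one, against 5.54% of all rows. The median was 0.01 without Ucp1-KO replicate 15, 0.02 without WT replicate 12 or Ucp1-KO replicate 14 and 0.03 without WT replicate 10. The most abundant were Chchd3, a scaffold of the cristae with 272, 229 and 240 RPKM in WT and 264, 266 and 289 RPKM in Ucp1-KO cultures, Dnajc15 and Romo1. Dnajc15, a cochaperone related to Dnajc19, had 134, 124 and 121 RPKM in WT and 151, 157 and 153 RPKM in Ucp1-KO cultures, with a log2 fold change of 0.28 (limma unadjusted p = 0.0129, adjusted p = 0.868). Immp1l, an inner membrane peptidase, had 10.2, 8.97 and 8.51 RPKM in WT and 11.99, 11.2 and 11.5 RPKM in Ucp1-KO cultures, with 0.30 (unadjusted 0.0196). Together with Agk, which was higher, and Timmdc1, which was lower, these were the 4 genes whose genotypes did not overlap (16%, against 11.2% of all rows). Agk and Timmdc1 were named after their values were seen. Mtx3, next by p, had 0.21 and overlapped, and Romo1, which modulates the TIM23 channel, had 0.07.

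Several members have near-identical copies elsewhere in the genome, which limits how far their levels can be read. Stretches of 50 bases, the length of the reads, were compared exactly with the GENCODE M21 transcripts of genes at other places. Of 38 members, 19 shared none, 27 shared less than 5% and 2 more than 50%. Timm23 shared 90.9% of its stretches, chiefly with Gm10273, and Pam16 shared 88.7% with Gm9803. Only uniquely identified reads were assigned, and the part of the shared sequence in the low levels of both was not tested. Another deposited transcript of Pam16, from Ensembl, was listed at 21.9, 20.9 and 21.6 RPKM in WT and 25.8, 26.3 and 20.9 RPKM in Ucp1-KO cultures, 55.3 times the RefSeq transcript. Hspd1 shared 44.8%, Timm8a1 41.0%, Hspe1 36.1% and Gfer 27.4%.

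Of the members with genotypes apart, Timm9, Timm8b and Tomm70a shared none, Timm10b 0.62% and Tomm5 8.81%. The copy of Tomm5, Gm8069, is listed with 49.9, 47.2 and 53.5 RPKM in WT and 61.5, 56.9 and 70.1 RPKM in Ucp1-KO cultures, so that its genotypes do not overlap either. Whether it holds reads of Tomm5 was not tested. Tomm20 shared 6.24% with pseudogenes, and a GenBank transcript of it was listed at 31.3 RPKM, 3.61 times the RefSeq level of 8.66 RPKM, with a similar difference for Tomm7 at 168 against 55.1 RPKM. A GenBank transcript of Grpel1 was listed at 360.3 RPKM, 3.24 times its RefSeq level of 111 RPKM and above every transcript of Timm8b, so that the order of these genes holds for RefSeq transcripts only. Levels therefore depend on the transcript chosen, as did the direction for Mtx1, and comparisons between genotypes were made within the same transcript.

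**Figure D5:**
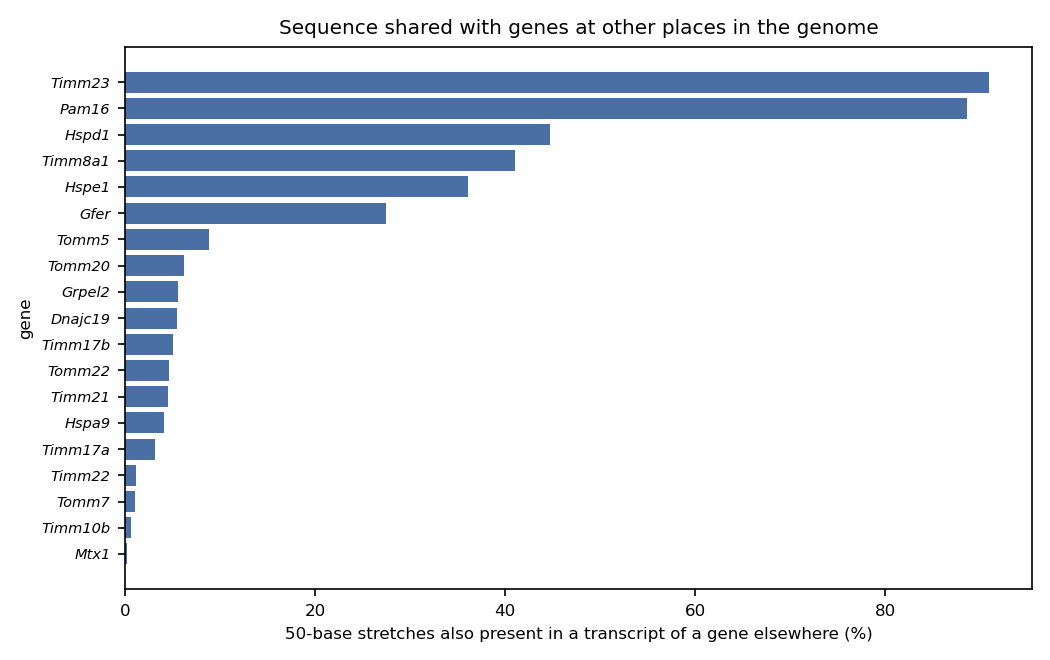
Share of the 50-base stretches of a member's transcript, in percent, that also occur exactly in a transcript of a gene elsewhere, for the 19 members with any. Timm23 at 90.9% and Pam16 at 88.7% lie far above the others.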

How the data were processed

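RNA of 6 cultures of differentiated brown adipocytes was sequenced as single reads of 50 bases from TruSeq v2 libraries. Per the methods of the study, the authors aligned them to mouse build 38, kept those identified uniquely, counted them per known transcript with Genomatix software and deposited RPKM values. CASAVA and bcl2fastq are named in the submitters' notes without versions, and the use of strand is not given in the sources used here. Groups came from the sample labels.

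RefSeq rows with a mean of at least 0.5 RPKM (16865 of 28890) were compared by limma 3.58.1 (R 4.3.3), with an intensity trend, on log2(RPKM + 1), with Benjamini-Hochberg adjustment over all rows. Members are all accounted for by role. Values in every culture were planned for the 3 most and least abundant members, those with genotypes apart or an unadjusted p under 0.05, and the matrix chaperones, and for members of ratios apart. Of the second list, the 3 most abundant and the 3 smallest p were planned. Culture values of Timm10, Timm23, Timm50, Sdhd and Gm8069 were added after they were seen. The members and lists were chosen with earlier results of these data known. Whole reads were recovered for 100% of the tested rows, within a tolerance of at least 0.002 reads that grew with transcript length and read number. For 3 reads, the floor covers counting error only. In simulated data with 200 of 16865 rows changed 3-fold, 154 calls were made, 150 of them on changed rows, and 0 calls with none changed. Simulated rows varied independently of each other. In the real data Ucp1, with a log2 fold change of -1.78, was not called, so the simulated share of calls does not carry over to them. Python 3.11.15 was used for the rest. Alternatives were another constant, no minimum, median-of-ratios scaling, 1 row per gene, limma-voom on recovered reads and leaving out each culture.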

Additional observations from a re-analysis of the deposited data

How the results depend on the processing

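Timm9 and Tomm5 had an unadjusted limma p under 0.05 with a log2 fold change above 0 in every alternative run. Timm8b did so in the 5 alternatives that kept all cultures and without Ucp1-KO replicate 13, and lost it without any other single culture. No alternative gave a member with an adjusted p under 0.05, and the smallest adjusted p among members lay between 0.376 and 0.999. The number of members with an unadjusted p under 0.05 lay between 2 and 5 with single cultures left out. Without WT replicate 11, WT replicate 12 or Ucp1-KO replicate 14 it was 2, against 1.88%, 2.61% and 3.57% of all rows. It was 3 without Ucp1-KO replicate 15 (5.16% of all rows), 4 without WT replicate 10 (10.4%) and 5 without Ucp1-KO replicate 13 (9.14%). The median of the members lay between 0.0622 (without WT replicate 11) and 0.147, and that of the second list between 0.0120 and 0.0653. The number of ratios with genotypes apart, which leaving out a culture cannot lower, lay between 1 and 5 (1 with all cultures). It was 0 with the most abundant transcript outside RefSeq of Tomm40l alone or of every gene, alternatives chosen after seeing the data. Hspd1 lay between -0.0948 and 0.00896 and turned without WT replicate 10 (0.00596) and without Ucp1-KO replicate 15 (0.00896). Hspa9 lay between -0.198 and -0.0343, Hspe1 between 0.0418 and 0.211 and Grpel1 between 0.0738 and 0.206. Tomm20l lay between -0.0322 and 0.293 with single cultures left out and turned without WT replicate 11 (-0.0322). It was 0.459 with a constant of 0.1 RPKM and 0.521 by limma-voom on recovered reads. The cause was not tested. No paired analysis was possible because the WT replicates are numbered 10 to 12 and the Ucp1-KO replicates 13 to 15, so that no number is shared, and the sources used here do not say whether cultures of both genotypes were made in parallel. Few reads stood behind the RefSeq rows of Tomm20l (2 to 10 per culture), Pam16 (2 to 6), Timm8a2 (at most 1), Timm23 (37 to 47) and Timm8a1 (34 to 65).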
